A study of Homo sapiens with 8 samples.

Results

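Expression of 10 genes of the Notch pathway was examined in the human ovarian cancer line UWB1.289. These were 3 receptor genes (NOTCH1, NOTCH2 and NOTCH3), 3 ligand genes (JAG1, JAG2 and DLL1), the receptor-modifying enzyme gene LFNG and 3 target genes (HES1, HEY1 and NRARP). They were picked by gene symbol from 25369 named genes, and the family was selected on the large rise of NOTCH3 after entinostat in these same libraries. Values for entinostat against control are therefore given for these genes as a description, without a test. The comparisons between the lines are tested, and so is the difference between the lines in response. These tests share libraries with the values that the choice used, and the difference in response is built from those values. All 10 genes were among the 17714 that passed the filter on low counts, although DLL1 passed only through its entinostat libraries.

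UWB1.289 carries a BRCA1 deletion that truncates the protein and is named BRCA1-null here, while BRCA1+ names its derivative transduced with intact BRCA1. Cells of both lines received either DMSO, the vehicle, as the control, or entinostat, which blocks the histone deacetylases HDAC1 and HDAC3, at 0.5 uM over 24 h. Poly(A) RNA of the 4 groups (BRCA1+ control, BRCA1+ entinostat, BRCA1-null control and BRCA1-null entinostat) was sequenced in 2 libraries each. One parental line and one derivative stand for the BRCA1 states, so the transduction and BRCA1 itself cannot be told apart, and whether the derivative was a single clone was not given in the sources used here.

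Notch receptors are single-pass membrane proteins that are activated by Jagged or Delta ligands on a neighboring cell. Ligand binding lets ADAM proteases and then gamma-secretase cut the receptor, and the released intracellular domain joins the DNA-binding protein RBPJ and the Mastermind coactivators in the nucleus to switch on genes such as HES1, HEY1 and NRARP. In ovarian carcinoma the pathway has been studied mainly through NOTCH3, which is amplified in a share of high-grade serous tumors, and through JAG1.

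The sequence upstream of the start is shown for NOTCH3 and NOTCH1, because these receptor genes had opposite differences between entinostat and control, and for HES1, because it is a direct target that RBPJ is known to bind. RefSeq (GRCh38.p14) gave the 250 bases before the start for 8 of the 10 genes, and no entry was found for DLL1 or HEY1. The letters are on the strand of the gene, 5′ to 3′. NOTCH3 lies at chr19:15200996-15201245 on the minus strand, NOTCH1 at chr9:136546049-136546298 on the minus strand and HES1 at chr3:194135898-194136147 on the plus strand. Capitals mark the GC box GGGCGG in the receptor genes and the RBPJ core TGGGAA in HES1.
NOTCH3: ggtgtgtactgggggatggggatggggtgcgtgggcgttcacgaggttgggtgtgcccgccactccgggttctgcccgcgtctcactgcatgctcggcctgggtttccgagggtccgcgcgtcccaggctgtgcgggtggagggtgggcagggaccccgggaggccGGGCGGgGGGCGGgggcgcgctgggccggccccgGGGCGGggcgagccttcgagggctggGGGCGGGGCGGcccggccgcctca
NOTCH1: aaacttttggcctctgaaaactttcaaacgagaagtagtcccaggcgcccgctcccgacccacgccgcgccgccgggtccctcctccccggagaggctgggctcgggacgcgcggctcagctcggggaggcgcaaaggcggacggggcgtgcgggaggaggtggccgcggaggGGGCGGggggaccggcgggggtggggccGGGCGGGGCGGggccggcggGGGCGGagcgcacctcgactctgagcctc
HES1: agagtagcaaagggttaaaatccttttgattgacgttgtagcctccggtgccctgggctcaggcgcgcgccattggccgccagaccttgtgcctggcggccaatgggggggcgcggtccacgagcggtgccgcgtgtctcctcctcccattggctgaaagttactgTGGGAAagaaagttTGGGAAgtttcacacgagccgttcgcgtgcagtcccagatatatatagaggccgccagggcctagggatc

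Both motifs were searched on both strands (as GGGCGG or CCGCCC, and as TGGGAA or TTCCCA). The stretch before NOTCH3 held 5 GC boxes, of which the last 2 share 1 base, and the stretch before NOTCH1 held 4, of which the middle pair shares 1 base. Of the other genes NRARP also held 4, JAG1 and JAG2 held 2 each, NOTCH2 held 1, LFNG held 1 before one of its 2 listed starts and 0 before the other, and HES1 held 0. Among 35116 upstream stretches of the same length, 42.6% held at least 1 GC box, 7.63% held 4 or more and 4.15% held 5 or more. The letters G and C made up 78% of the NOTCH3 stretch, 76% of the NOTCH1 stretch and 59.2% of the HES1 stretch, against a median of 58% over all stretches. HES1 held 2 RBPJ cores, at 84 to 79 and at 70 to 65 bases before the start, and the first of these lay within the longer form GTGGGAA. The core was present in 20.8% of all stretches and the longer form in 5.43%. These matches describe letters and are not evidence of binding.

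Total counts ranged from 31900158 to 53549893 per library, so that 3 counts, the limit that a count of 0 allows, corresponded to 0.0552 to 0.0946 CPM, the usual scaling of counts to the total of the library. This limit covers counting error only. BRCA1 lay between 92.4 and 134 CPM in the 4 BRCA1+ libraries and between 17.6 and 22.4 CPM in the 4 BRCA1-null libraries, with a log2 difference in DMSO of -2.14 ± 0.0862 (SE, edgeR adjusted p = 5.46e-07). In entinostat this difference was -2.77 ± 0.0888 (edgeR adjusted p = 1.78e-07). With entinostat BRCA1 rose by 0.39 ± 0.0784 in BRCA1+ cells (edgeR adjusted p = 0.0124). In BRCA1-null cells its value was -0.24 ± 0.0936 (edgeR adjusted p = 0.131), and its interaction was not called (edgeR adjusted p = 0.967). The epithelial genes EPCAM, CDH1, KRT7, KRT8, KRT18, KRT19, PAX8 and MUC16 were present in every library, whereas WT1, a marker of serous ovarian carcinoma, had 1 to 20 counts. The mesenchymal genes CDH2 and VIM were present too, with CDH2 at 77 to 106 CPM beside CDH1 at 34.8 to 85.4 CPM. VIM was at 46.1 and 52.1 CPM in BRCA1+ control and 107 and 114 CPM in BRCA1+ entinostat libraries. In BRCA1-null libraries VIM was at 200 and 201 CPM in control and 298 and 273 CPM with entinostat. Levels are CPM below, and comparisons between different genes use CPM per kb of exon (RPKM). Differences are log2 fold changes from edgeR's quasi-likelihood test, BRCA1-null relative to BRCA1+ or entinostat relative to control, with the SE and the Benjamini-Hochberg adjusted p over 17714 genes, and a gene is called where that p is under 0.05.

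**Figure D1:**
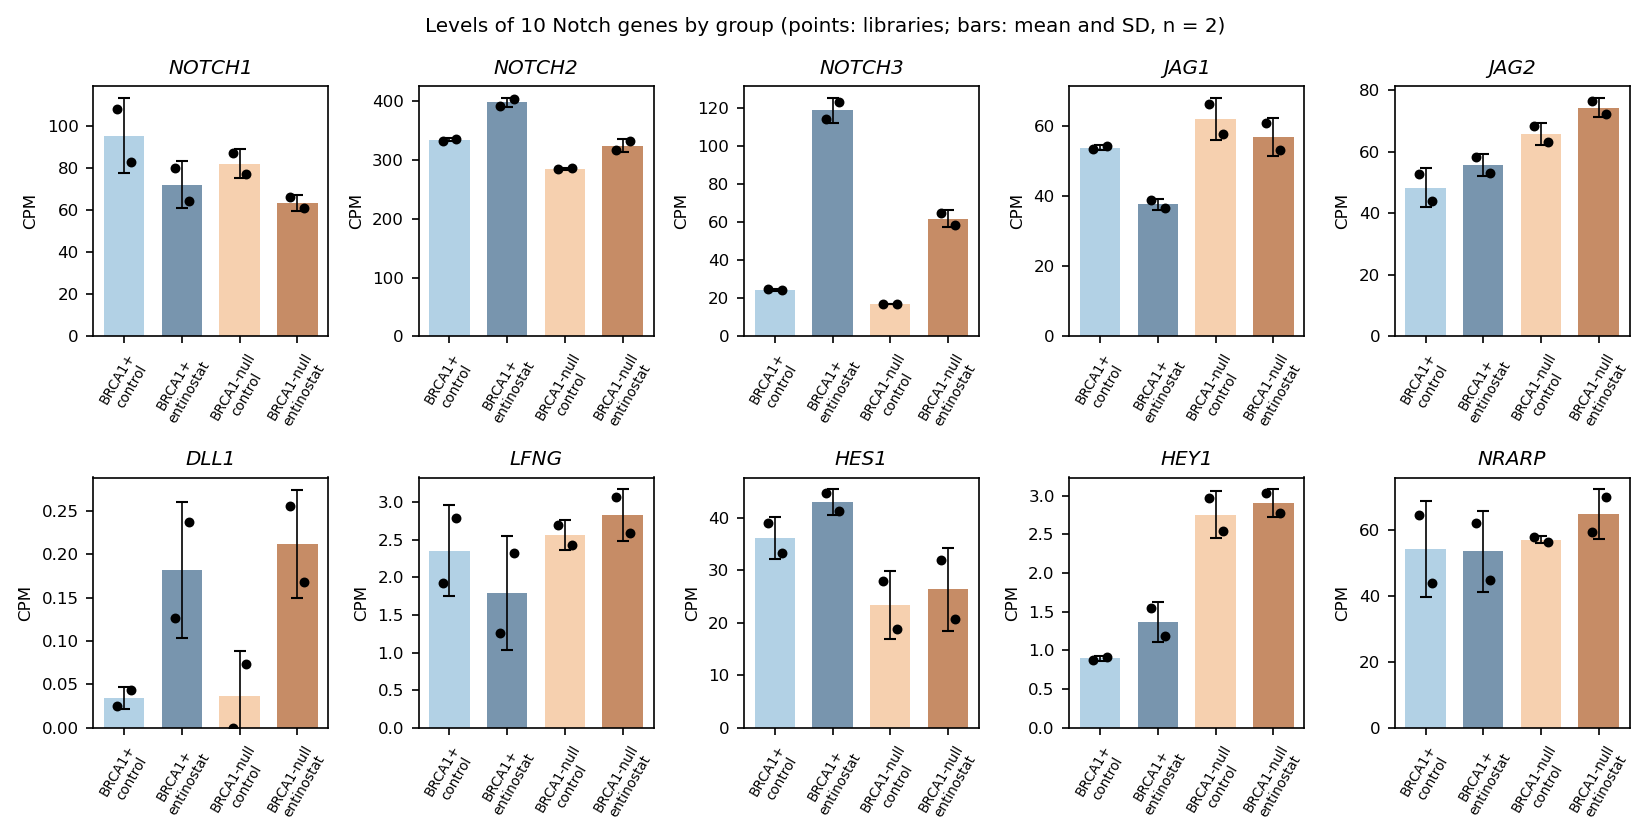
Levels of the 10 genes in CPM (y axis, linear and from 0, a different scale in each panel) for the 4 groups (x axis). Points are libraries, bars are group means and whiskers are the SD of 2 libraries, cut at 0 for DLL1; NOTCH3 stands highest in BRCA1+ entinostat at 114 and 123 CPM, and HEY1 is higher in all 4 BRCA1-null libraries than in any BRCA1+ library.

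Per kb of exon, NOTCH2 had the highest level of the 10 genes in BRCA1+ control cells, at 28.3 ± 0.190 RPKM (SD, n = 2). HES1 at 24.7 ± 2.72 RPKM and NRARP at 20.8 ± 5.53 RPKM came next and did not differ from each other beyond their spread. NOTCH1 at 10.3 ± 1.94 RPKM, JAG1 at 8.97 ± 0.116 RPKM and JAG2 at 8.28 ± 1.08 RPKM likewise lay within their spread of one another. NOTCH3 followed at 3.03 ± 0.0482 RPKM, and LFNG, HEY1 and DLL1 were all under 1 RPKM. 

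NOTCH3 encodes a receptor best known from vascular smooth muscle cells and pericytes, and its gene lies on the minus strand of chromosome 19 (hg19 chr19:15270444-15311792), where it overlaps the microRNA gene MIR6795. Its level was 24.7 and 24.2 CPM in the BRCA1+ control libraries and 114 and 123 CPM after entinostat. In BRCA1-null cells it was 16.9 and 16.8 CPM in control and 65.0 and 58.6 CPM after entinostat. All 4 entinostat libraries lay far above all 4 control libraries, and within each treatment both BRCA1+ libraries lay above both BRCA1-null libraries. The log2 fold change with entinostat was 2.28 ± 0.0773 (4.87-fold) for BRCA1+ and 1.88 ± 0.0795 (3.67-fold) for BRCA1-null cells, as a description.

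Between the lines, NOTCH3 was lower in BRCA1-null cells under both treatments. The choice of genes did not use this comparison, but it used values from the same libraries. The log2 fold change was -0.54 ± 0.0837 in DMSO (edgeR adjusted p = 8.99e-04) and -0.94 ± 0.0715 in entinostat (edgeR adjusted p = 1.70e-05), that is 1.45-fold and 1.92-fold lower. Both calls held in all 15 alternative settings, with log2 fold changes of -0.55 to -0.49 in DMSO and -1.02 to -0.87 in entinostat.

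Markers of other cells also differed with entinostat and are given beside NOTCH3. Over 11 leukocyte, endothelial, fibroblast and pericyte genes the summed level was 21.4 to 29.0 CPM without and 53.8 to 63.7 CPM with entinostat in BRCA1+ libraries, whereas the BRCA1-null libraries had 49.6 to 67.7 CPM without and 102 to 115 CPM with the drug. The sum included CDH5, a cadherin of endothelium, at 4.15 to 84.1 CPM and COL1A1, a collagen chain, at 4.07 to 22.3 CPM. The sum was higher in BRCA1-null than in BRCA1+ libraries of the same treatment. Not every gene in the sum went that way. Mean PECAM1 was 5.42 CPM in BRCA1+ and 2.87 CPM in BRCA1-null controls, and 6.67 and 3.61 CPM with entinostat. Mean CD14 was 2.61 and 0.65 CPM in these controls, and 4.61 and 1.63 CPM with entinostat. The pericyte gene PDGFRB had 0 to 4 counts, the fibroblast gene DCN 0 counts in all libraries and the T cell gene CD3E 0 to 4 counts, and RGS5 stood at 1.99 to 3.75 CPM. The part of these genes in the NOTCH3 values was not tested. The RNA is from bulk cultures, in which more cells with NOTCH3 and more NOTCH3 RNA per cell cannot be told apart.

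NOTCH2, a receptor with broad expression, lies on chromosome 1 (hg19 chr1:120454176-120612317, minus strand). Its level was 333 and 336 CPM for BRCA1+ controls and 393 and 404 CPM for BRCA1+ cells given entinostat, against 284 and 287 CPM for BRCA1-null controls and 317 and 333 CPM for BRCA1-null cells given entinostat. No group overlapped another in its treatment or its line. NOTCH2 was lower in BRCA1-null cells, by a log2 fold change of -0.23 ± 0.0489 in DMSO (edgeR adjusted p = 0.00485) and -0.29 ± 0.0489 in entinostat (edgeR adjusted p = 0.00129). The values for entinostat against control were 0.25 ± 0.0489 (BRCA1+) and 0.19 ± 0.0489 (BRCA1-null) on the log2 scale. NOTCH2 shares its first exons with the near-copy NOTCH2NL, and how the counting treated reads with several positions is not stated, so the split between the pair is uncertain. NOTCH2NL itself stood at 22.5 to 31.3 CPM, rose with entinostat by 0.44 ± 0.0738 (BRCA1+, edgeR adjusted p = 0.00648) and 0.29 ± 0.0721 (BRCA1-null, edgeR adjusted p = 0.0360), and gave 0.060 ± 0.0738 between the lines in DMSO (edgeR adjusted p = 0.545).

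NOTCH1, the receptor best known from T cell leukemia, lies on chromosome 9 (hg19 chr9:139388896-139440238, minus strand). Its level was 108 and 82.8 CPM in BRCA1+ control libraries and 80.2 and 64.3 CPM after entinostat, and 87.2 and 77.4 CPM in BRCA1-null control libraries and 66.1 and 60.9 CPM after entinostat. Both entinostat libraries lay below both control libraries in each line, and the lines overlapped in each treatment. Entinostat against control gave -0.41 ± 0.139 in BRCA1+ and -0.37 ± 0.138 in BRCA1-null cells on the log2 scale, in the opposite direction to NOTCH2 and NOTCH3. Between the lines the difference was -0.21 ± 0.136 in DMSO (edgeR adjusted p = 0.236) and -0.18 ± 0.140 in entinostat (edgeR adjusted p = 0.347), and neither was called. With the replicate number as a block the DMSO difference was -0.21 and was called (edgeR adjusted p = 0.0281), and over all alternatives its adjusted p ran from 0.0281 to 0.951.

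The makeup of the receptor RNA followed these values. Per kb of exon, NOTCH3 made up 7.28 ± 0.198% of the summed RPKM of the 3 receptor genes in BRCA1+ control libraries and 26.2 ± 1.32% after entinostat (SD, n = 2). In BRCA1-null cells its share was 5.95 ± 0.0806% in control and 18.3 ± 1.34% after entinostat. NOTCH1 held 24.6 ± 3.59% and 25.2 ± 1.69% in the control groups of BRCA1+ and BRCA1-null cells and 13.9 ± 2.21% and 16.3 ± 0.946% after entinostat, so that NOTCH3 passed NOTCH1 in all 4 entinostat libraries. NOTCH2 remained the main receptor RNA in every library, with 59.3% to 70.5% of the sum. The sum itself went from 41.6 ± 1.79 RPKM without to 56.2 ± 0.241 RPKM with entinostat in BRCA1+ libraries, and from 35.1 ± 0.628 RPKM to 41.9 ± 0.00856 RPKM in BRCA1-null libraries. These shares are descriptions, since they contain the entinostat values of NOTCH3.

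**Figure D2:**
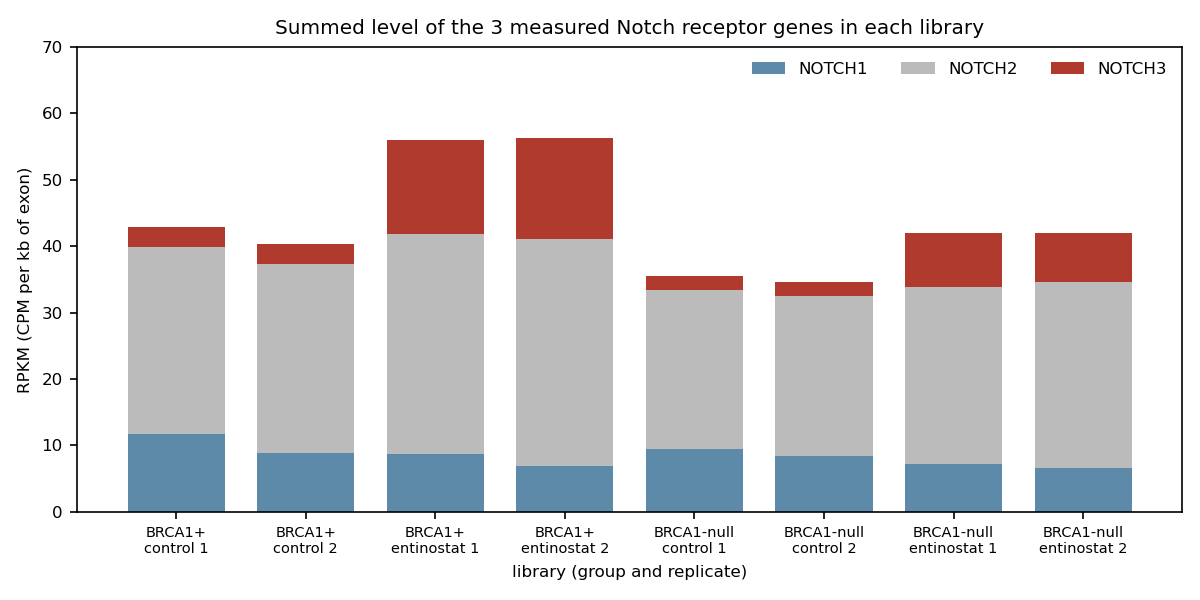
Summed level of NOTCH1, NOTCH2 and NOTCH3 in RPKM (y axis, linear and from 0) in each of the 8 libraries (x axis), stacked by gene. NOTCH3 is the thinnest layer in the 4 control libraries and thicker than NOTCH1 in the 4 entinostat libraries, and the BRCA1+ entinostat libraries have the highest sums at 56.0 and 56.3 RPKM.

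JAG1 encodes a Jagged ligand and lies on chromosome 20 (hg19 chr20:10618332-10654694, minus strand). Its level was 53.2 and 54.2 CPM in BRCA1+ control libraries and 38.7 and 36.5 CPM after entinostat, and 66.2 and 57.6 CPM in BRCA1-null control libraries and 60.7 and 53.1 CPM after entinostat. The BRCA1+ entinostat libraries stood below all others, and the BRCA1-null control and entinostat libraries overlapped. In entinostat JAG1 was higher in BRCA1-null than in BRCA1+ cells, by 0.60 ± 0.0926 on the log2 scale (edgeR adjusted p = 8.56e-04, 1.52-fold), a call that held in all 15 alternatives. In DMSO the difference was 0.20 ± 0.0891 (edgeR adjusted p = 0.0963). It was called with the replicate block (0.20, edgeR adjusted p = 0.0294) and without BRCA1-null control replicate 2 (0.30, edgeR adjusted p = 0.0486), and its adjusted p over all alternatives ran from 0.0294 to 0.373. For JAG1, entinostat against control gave -0.52 ± 0.0929 in BRCA1+ and -0.12 ± 0.0886 in BRCA1-null cells.

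JAG2, the second Jagged ligand, lies on chromosome 14 (hg19 chr14:105607318-105635161, minus strand). BRCA1+ cells had 52.8 and 43.8 CPM without and 58.3 and 53.0 CPM with entinostat, and BRCA1-null cells 68.2 and 63.0 CPM without and 76.5 and 72.1 CPM with it. All 4 BRCA1-null libraries lay above all 4 BRCA1+ libraries. The log2 fold change between the lines was 0.44 ± 0.0954 in DMSO (edgeR adjusted p = 0.00515, 1.36-fold) and 0.42 ± 0.0953 in entinostat (edgeR adjusted p = 0.00696, 1.34-fold). The DMSO call held in all 15 alternatives. The entinostat call was lost without BRCA1+ entinostat replicate 2 (0.35, edgeR adjusted p = 0.0706, range over the alternatives 2.85e-04 to 0.0706). Its entinostat values were 0.20 ± 0.0972 in BRCA1+ and 0.18 ± 0.0933 in BRCA1-null cells.

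DLL1, a Delta ligand on chromosome 6 (hg19 chr6:170591294-170599697, minus strand), had 1 and 2 counts in BRCA1+ control libraries and 4 and 11 after entinostat, and 0 and 4 counts in BRCA1-null control libraries and 12 and 7 after entinostat. The control libraries were at or near the limit of 3 counts, so no fold is given. The difference between the lines was not called in DMSO (edgeR adjusted p = 0.918) or in entinostat (edgeR adjusted p = 0.864), and a difference was not detectable at this depth. The receptor-modifying enzyme LFNG, or lunatic fringe, adds N-acetylglucosamine to fucose on the receptors, which favors Delta over Jagged ligands. Its gene lies on chromosome 7 (hg19 chr7:2552163-2568810, plus strand). LFNG was at 1.93 and 2.79 CPM without and 1.26 and 2.33 CPM with entinostat in BRCA1+ libraries, whereas the BRCA1-null libraries had 2.70 and 2.43 CPM without and 3.07 and 2.59 CPM with the drug. The lines overlapped in DMSO (log2 fold change 0.10 ± 0.266, edgeR adjusted p = 0.791) and stood apart in entinostat without a call (0.59 ± 0.287, edgeR adjusted p = 0.135). The log2 values for entinostat against control were -0.34 ± 0.299 in BRCA1+ and 0.15 ± 0.255 in BRCA1-null cells.

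The target genes HES1 and HEY1 encode related transcriptional repressors, and they differed between the lines in opposite directions. HES1 (hg19 chr3:193853931-193856401, plus strand), whose upstream stretch with its RBPJ cores is printed above, was at 39.0 and 33.3 CPM for BRCA1+ controls and 44.7 and 41.2 CPM for BRCA1+ cells given entinostat, against 28.0 and 18.8 CPM for BRCA1-null controls and 31.9 and 20.8 CPM for BRCA1-null cells given entinostat. Both BRCA1-null libraries lay below both BRCA1+ libraries in each treatment, with a wide gap between the BRCA1-null replicates. The log2 fold change was -0.64 ± 0.213 in DMSO (edgeR adjusted p = 0.0382) and -0.70 ± 0.212 in entinostat (edgeR adjusted p = 0.0273). Since the libraries of the lines did not overlap, BRCA1-null cells necessarily had the lower level in each of the 4 pairs of same-numbered libraries, which adds no support. With the replicate number as a block the log2 fold change was -0.65 in DMSO (edgeR adjusted p = 0.00126) and -0.73 in entinostat (edgeR adjusted p = 6.15e-04). In fits without the block, the DMSO call was lost with DESeq2's Wald test (adjusted p = 0.0911), with upper-quartile scaling (edgeR adjusted p = 0.0543), with a stricter filter (edgeR adjusted p = 0.05001) and without any 1 of BRCA1+ control replicates 1 or 2, BRCA1+ entinostat replicates 1 or 2 or BRCA1-null control replicate 2. Over all alternatives its log2 fold change ran from -0.92 to -0.37, the extremes being without BRCA1-null control replicate 1 and replicate 2, and its adjusted p from 0.00126 to 0.233. Also without the block, the entinostat call was lost with DESeq2's Wald test (adjusted p = 0.0529) and without BRCA1+ entinostat replicate 1 or 2 or BRCA1-null entinostat replicate 2, with adjusted p from 6.15e-04 to 0.149 over the alternatives. Entinostat against control gave 0.25 ± 0.207 in BRCA1+ and 0.19 ± 0.217 in BRCA1-null cells.

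HEY1 (hg19 chr8:80676245-80680098, minus strand) was low, with 35 and 42 counts without and 49 and 55 counts with entinostat in BRCA1+ libraries, whereas the BRCA1-null libraries had 135 and 138 counts without and 142 and 116 counts with the drug. In the same order these are 0.876 and 0.915, 1.55 and 1.19, 2.97 and 2.54, and 3.03 and 2.78 CPM. All 4 BRCA1-null libraries lay above all 4 BRCA1+ libraries. HEY1 was 3.05-fold higher in BRCA1-null cells in DMSO (log2 fold change 1.61 ± 0.229, edgeR adjusted p = 5.26e-04), the largest difference between the lines among the 10 genes. In entinostat it was 2.18-fold higher (1.12 ± 0.216, edgeR adjusted p = 0.00296). The DMSO call held in all 15 alternatives, and the entinostat call was lost without BRCA1+ entinostat replicate 2 (0.91, edgeR adjusted p = 0.0520, range over the alternatives 0.00132 to 0.0520). The entinostat differences of HEY1 were 0.57 ± 0.281 in BRCA1+ and 0.088 ± 0.175 in BRCA1-null cells.

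NRARP encodes an ankyrin-repeat protein that is induced by Notch and limits its activity, and it lies on chromosome 9 (hg19 chr9:140194083-140196703, minus strand). Its level was 64.6 and 44.1 CPM for BRCA1+ controls and 62.3 and 44.9 CPM for BRCA1+ cells given entinostat, against 57.9 and 56.4 CPM for BRCA1-null controls and 59.6 and 70.3 CPM for BRCA1-null cells given entinostat. The groups overlapped except for the BRCA1-null entinostat against the BRCA1-null control libraries. No difference between the lines was called in DMSO (0.075 ± 0.185, edgeR adjusted p = 0.776) or in entinostat (0.29 ± 0.187, edgeR adjusted p = 0.263). Entinostat against control gave -0.027 ± 0.189 in BRCA1+ and 0.18 ± 0.183 in BRCA1-null cells.

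Counted together, 5 of the 10 genes were called between the lines in DMSO, with JAG2 and HEY1 higher and NOTCH2, NOTCH3 and HES1 lower in BRCA1-null cells. The background was high, since 42.2% of all 17714 genes were called, 21.1% higher and 21.0% lower. In entinostat 6 of the 10 were called, with JAG1, JAG2 and HEY1 higher and NOTCH2, NOTCH3 and HES1 lower, against 39.4% of all genes, of which 20.5% were higher and 18.9% lower. The libraries of the lines did not overlap for 6 of the 10 genes in DMSO and 7 in entinostat, where the shares of all genes were 70.9% and 69.5%. Shares of 5 and 6 in 10 lie near the background and are no result about the family. With the replicate block 7 of the 10 were called in DMSO, where the share of all genes was 50.6%, and without BRCA1+ entinostat replicate 2 the count in entinostat was 3, where it was 25.6%. 

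**Figure D3:**
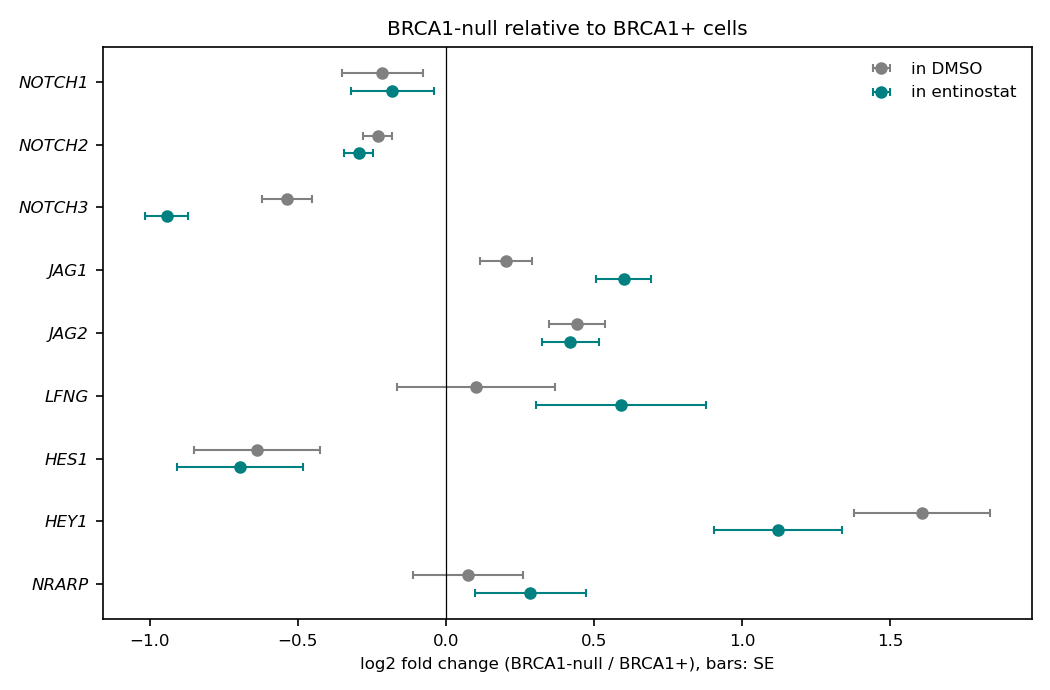
Log2 fold change of BRCA1-null relative to BRCA1+ cells (x axis, points with SE bars) for 9 genes (y axis) in DMSO and in entinostat. DLL1 is left out because its control libraries were at the limit of counting; HEY1 lies farthest to the right at 1.61 and 1.12, and NOTCH3 farthest to the left in entinostat at -0.94.

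Over the entinostat comparisons, which the choice of genes used, 3 of the 10 genes passed the same threshold in BRCA1+ cells (NOTCH2 and NOTCH3 higher, JAG1 lower) beside 14.1% of all genes, 8.13% higher and 6.0% lower. In BRCA1-null cells 2 passed (NOTCH2 and NOTCH3 higher) beside 10.8% of all genes, 7.57% higher and 3.19% lower. Libraries did not overlap for 8 of 10 genes in BRCA1+ and 6 of 10 in BRCA1-null cells, beside 57.0% and 54.7% of all genes. With the replicate block the counts were 5, adding NOTCH1 and JAG2, beside 24.4% of all genes, and 3, adding NOTCH1, beside 20.5%. Nothing is read from these counts.

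**Figure D4:**
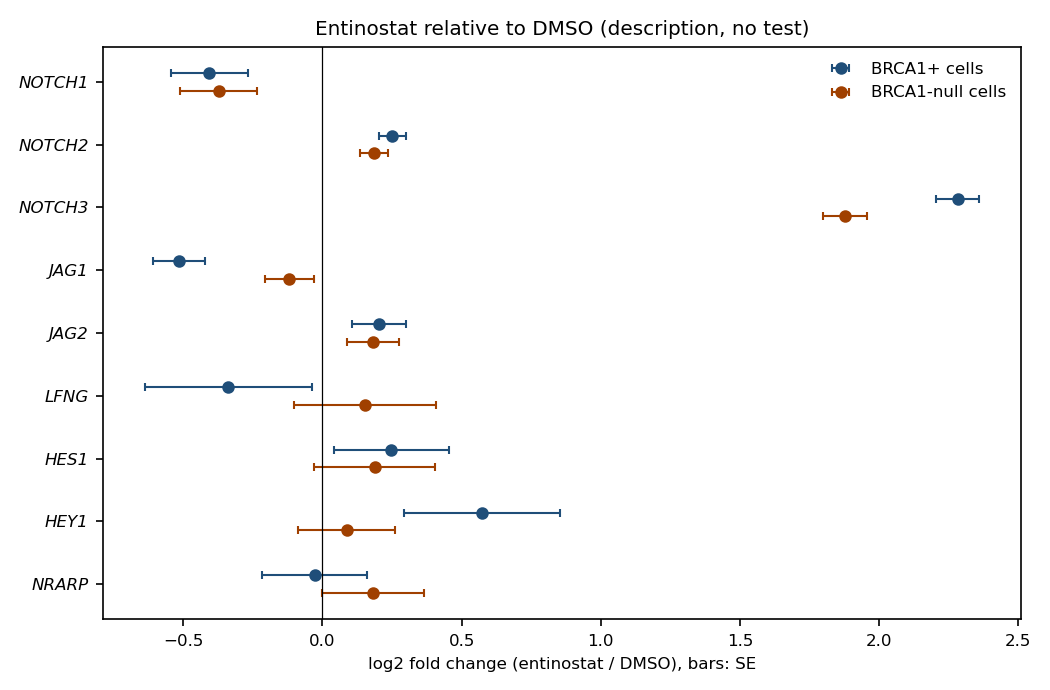
Log2 fold change of entinostat relative to DMSO control (x axis, points with SE bars) for 9 genes (y axis) in BRCA1+ and BRCA1-null cells, as a description without a test; DLL1 is left out as above. NOTCH3 stands alone at 2.28 and 1.88, and the other 8 genes lie between -0.52 and 0.57.

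Whether the response to entinostat differed between the lines was tested as an interaction. For the 10 genes it is built from the entinostat values that the choice of genes used. None of the 10 genes was called by edgeR, with a smallest adjusted p of 0.967, and none by DESeq2's Wald test or with the replicate block. Over all genes 0 of 17714 were called by edgeR, 11 of 13936 by DESeq2's Wald test and 1 of 17714 by edgeR with the replicate block. At an unadjusted p under 0.05 there were 2 of the 10 genes, beside 4.67% of all genes. These were NOTCH3, whose response was smaller in BRCA1-null cells by -0.41 ± 0.110 on the log2 scale (edgeR adjusted p = 0.967), and JAG1, whose decrease was smaller in BRCA1-null cells by 0.40 ± 0.128 (edgeR adjusted p = 0.967). The sign held for both in all 14 alternatives that gave a value, with ranges of -0.48 to -0.33 and 0.30 to 0.49. These alternatives reuse the same libraries and are no separate support. The other 8 genes had unadjusted p of 0.177 or more, with values from -0.48 ± 0.331 for HEY1 to 0.49 ± 0.393 for LFNG.

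Of 59 other genes of the pathway, 54 passed the filter. NOTCH4, which the annotation places on an alternative haplotype contig of chromosome 6, DLK1 and HES3 were listed with 0 counts in all libraries. These genes were not used to choose the 10 and were tested in every comparison. Between the lines in DMSO 23 of 54 passed, of which BRCA1-null cells had 8 higher and 15 lower, which is 42.6% beside 42.2% of all genes, with a median log2 fold change of -0.062 beside 0.012 over all genes. With upper-quartile scaling the split was 10 higher and 12 lower. In entinostat 22 were called, 8 higher and 14 lower, or 40.7% beside 39.4% of all genes, with a median of -0.103 beside 0.019. With the replicate block the counts were 29 in DMSO, beside 50.6% of all genes, and 27 in entinostat, beside 47.4%.

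The named genes of the line comparison act at several steps. DTX4, a Deltex ubiquitin ligase that regulates receptor trafficking, stood at 6.67 to 16.1 CPM in BRCA1+ and 1.79 to 4.86 CPM in BRCA1-null libraries and was lower in BRCA1-null cells by -2.04 ± 0.252 in DMSO (edgeR adjusted p = 2.34e-04) and -1.85 ± 0.207 in entinostat (edgeR adjusted p = 1.36e-04). Its relative DTX1 went the other way, by 1.08 ± 0.147 in DMSO (edgeR adjusted p = 3.94e-04) and 0.65 ± 0.139 in entinostat (edgeR adjusted p = 0.00520). NEURL1, a Neuralized ubiquitin ligase that acts on ligands, was lower by -2.03 ± 0.332 in DMSO (edgeR adjusted p = 0.00118) and -1.54 ± 0.323 in entinostat (edgeR adjusted p = 0.00465). Its relative NEURL1B was lower by -0.58 ± 0.19 in DMSO (edgeR adjusted p = 0.0345) and -1.06 ± 0.182 in entinostat (edgeR adjusted p = 0.00158). Of the 3 Mastermind coactivators MAML1 and MAML2 were lower under both treatments. MAML2 was lower by -0.76 ± 0.0899 in DMSO (edgeR adjusted p = 1.88e-04) and -0.47 ± 0.0913 in entinostat (edgeR adjusted p = 0.00294). MAML1 was lower by -0.67 ± 0.0787 in DMSO (edgeR adjusted p = 1.80e-04) and -0.61 ± 0.0815 in entinostat (edgeR adjusted p = 3.64e-04). MAML3, named after its values were seen, had a difference of 0.53 ± 0.221 in DMSO (edgeR adjusted p = 0.0832), which was called with the replicate block. Of the Groucho-type corepressors, TLE2 was higher by 0.92 ± 0.138 (edgeR adjusted p = 6.95e-04) and TLE4 lower by -0.77 ± 0.108 (edgeR adjusted p = 4.68e-04) in DMSO. In entinostat TLE2 gave 0.42 ± 0.121 (edgeR adjusted p = 0.0218) and TLE4 -0.57 ± 0.11 (edgeR adjusted p = 0.00300). Among 9 protease genes 1 was higher and 4 lower in DMSO, beside 21.1% and 21.0% of all genes. In entinostat 2 were higher and 3 lower, beside 20.5% and 18.9%, and nothing is read from counts this small. PSEN2, a catalytic subunit of gamma-secretase, was higher in entinostat by 0.60 ± 0.122 (edgeR adjusted p = 0.00402) and gave 0.17 ± 0.111 in DMSO (edgeR adjusted p = 0.239).

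After entinostat 15 of the 54 genes were called in BRCA1+ cells, 10 higher and 5 lower (27.8% beside 14.1% of all genes, median 0.066 beside 0), and 11 in BRCA1-null cells, 7 higher and 4 lower (20.4% beside 10.8%, median 0.060 beside 0.019). APH1B, a subunit of gamma-secretase, went from 2.35 and 2.66 CPM to 7.54 and 5.76 CPM in BRCA1+ cells and from 2.18 and 1.53 CPM to 6.16 and 4.33 CPM in BRCA1-null cells, a rise of 1.38 ± 0.244 (edgeR adjusted p = 0.00778) and 1.53 ± 0.255 (edgeR adjusted p = 0.00855) on the log2 scale. DLL3, a divergent Delta ligand known to act within the cell against Notch signaling, went from 9.38 and 9.52 CPM to 17.1 and 15.7 CPM and from 7.43 and 6.77 CPM to 14.2 and 12 CPM, a rise of 0.79 ± 0.117 (edgeR adjusted p = 0.00411) and 0.89 ± 0.120 (edgeR adjusted p = 0.00378). HES7, the oscillating repressor of somite formation, rose by 1.05 ± 0.262 (edgeR adjusted p = 0.0300) and 1.06 ± 0.270 (edgeR adjusted p = 0.0392). TLE2 rose by 1.20 ± 0.138 (edgeR adjusted p = 0.00135) and 0.70 ± 0.120 (edgeR adjusted p = 0.00965), and DTX4 by 0.89 ± 0.187 (edgeR adjusted p = 0.0157) and 1.08 ± 0.283 (edgeR adjusted p = 0.0431).

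In BRCA1+ cells decreases after entinostat were called for 3 of 8 nuclear activators, 1 of 9 corepressors and 1 of 9 proteases. The share of all genes called lower there was 6.0%. In BRCA1-null cells decreases were called for 2 of 8 nuclear activators and 2 of 9 corepressors, beside 3.19% of all genes. These counts are small and nothing is read from them. In both lines 1 corepressor, TLE2, rose. CREBBP, a histone acetyltransferase recruited by Mastermind, fell from 76.5 and 76.3 CPM to 58.2 and 59.2 CPM in BRCA1+ cells and from 77.0 and 75.2 CPM to 55.8 and 59.8 CPM in BRCA1-null cells. Its log2 fold change was -0.38 ± 0.0614 (edgeR adjusted p = 0.00566) and -0.40 ± 0.0607 (edgeR adjusted p = 0.00610). Its relative EP300 and the corepressor CTBP1 were also called lower in both lines, with MAML1 and PSEN2 called in BRCA1+ cells and TLE1 in BRCA1-null cells. MAML1 gave -0.29 ± 0.0786 in BRCA1+ (edgeR adjusted p = 0.0392) and -0.24 ± 0.0814 in BRCA1-null cells (edgeR adjusted p = 0.0937). PSEN2 gave -0.55 ± 0.123 (edgeR adjusted p = 0.0205) and -0.12 ± 0.110 (edgeR adjusted p = 0.517). For TLE1 the values were -0.23 ± 0.0658 (edgeR adjusted p = 0.05005) and -0.26 ± 0.0644 (edgeR adjusted p = 0.0363). These last names complete counts of 5 or fewer and were chosen after their values were seen. NEURL1B rose in BRCA1+ cells by 0.76 ± 0.178 (edgeR adjusted p = 0.0247) and gave 0.28 ± 0.194 in BRCA1-null cells (edgeR adjusted p = 0.391). Neither the DNA-binding partner RBPJ, at 104 to 123 CPM in all 8 libraries, nor any other of the 54 genes was called for the interaction by edgeR, with 2 at an unadjusted p under 0.05, nor by DESeq2's Wald test. With the replicate block the entinostat counts were 22 and 18, beside 24.4% and 20.5% of all genes. In BRCA1+ cells the count of called pathway genes was 5 without BRCA1+ entinostat replicate 1 and 6 without BRCA1+ entinostat replicate 2 or BRCA1+ control replicate 2, where 5.04%, 3.82% and 5.32% of all genes were called. In BRCA1-null cells it was 6 without either BRCA1+ entinostat library (7.01% and 7.07% of all genes), 4 without either BRCA1-null control library (6.43% and 2.94%) and 1 without BRCA1-null entinostat replicate 1 (2.89%). DLL3, APH1B, CREBBP and TLE2 in BRCA1+ cells and DLL3 in BRCA1-null cells were called whichever 1 of the 8 libraries was left out.

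**Figure D5:**
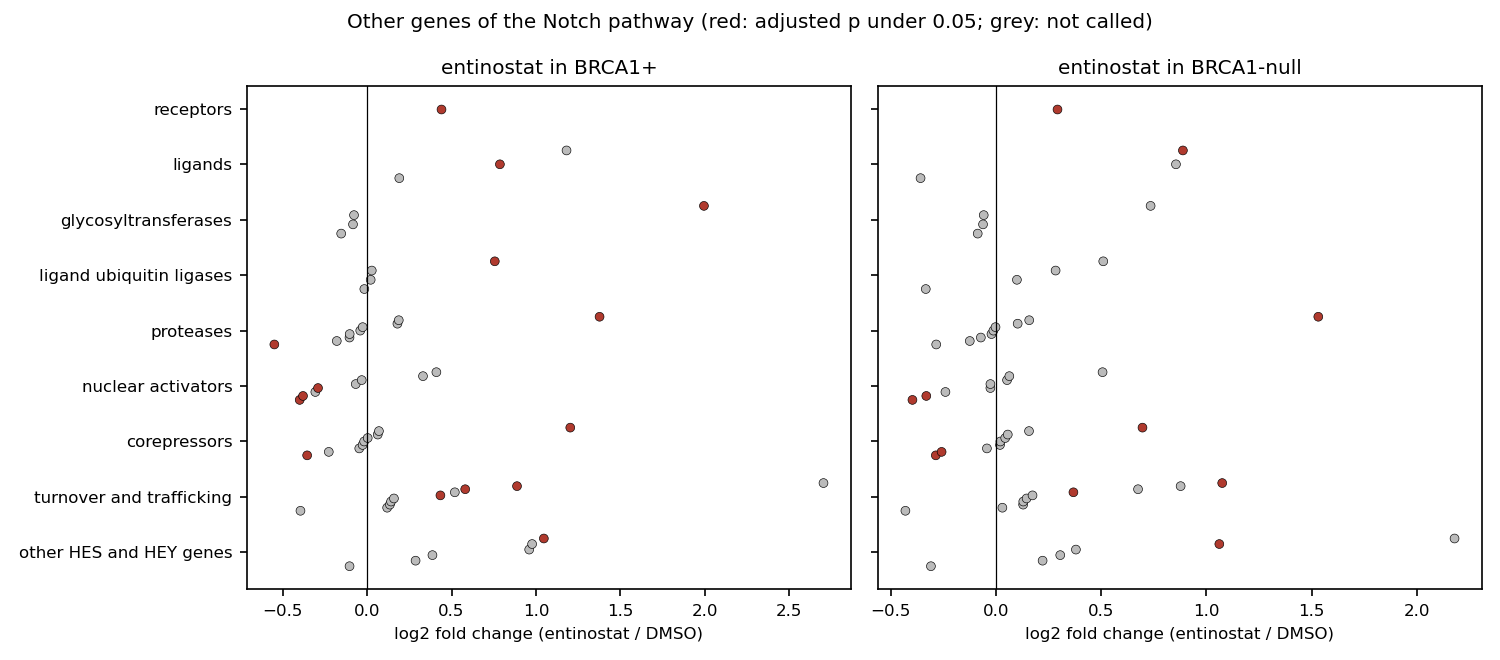
Log2 fold change of entinostat relative to DMSO control (x axis) for the 54 other pathway genes, grouped by role (y axis), in BRCA1+ cells (left) and BRCA1-null cells (right); each point is a gene, red where its adjusted p was under 0.05. Red points are 10 to the right and 5 to the left of 0 in BRCA1+ cells and 7 and 4 in BRCA1-null cells, and the nuclear activators have 3 and 2 red points, all on the left. Over all genes 6.0% and 3.19% were called lower.

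Genes with a pattern most like that of NOTCH3 were taken by Pearson's r of log2 CPM over the 8 libraries among 10404 genes, as a description, because the libraries share their treatment and line. The 5 highest were DYNC2H1, a cilium motor subunit (r = 0.992), CREBL2 (0.992), EID1 (0.991), USB1, an enzyme that trims U6 RNA (0.991), and RAB31, a small GTPase of vesicle transport (0.991). Like NOTCH3 they were highest in BRCA1+ entinostat and lowest in BRCA1-null control cells, but the size differed. RAB31 went from 9.31 and 9.04 CPM to 22.0 and 20.9 CPM in BRCA1+ cells and from 8.46 and 7.07 CPM to 16.5 and 15.5 CPM in BRCA1-null cells. EID1 went from 48.2 and 47.0 CPM to 56.5 and 57.6 CPM and from 46.0 and 44.7 CPM to 52.8 and 51.5 CPM. The log2 fold changes of these genes with entinostat ran from 0.26 to 1.22 in BRCA1+ and from 0.20 to 1.05 in BRCA1-null cells, all below those of NOTCH3.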

How the data were processed

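The deposited values are unnormalized gene-level read counts on hg19, in a single table. Reads had been aligned with TopHat and counted per gene symbol by the authors, and the treatment of strand, multiply mapped and spliced reads was not given in the sources used here, so overlapping microRNA genes inside NOTCH1, NOTCH3, JAG1, JAG2 and LFNG were not separated. Groups and replicate numbers came from the sample titles, and all 8 libraries (31900158 to 53549893 counts) were used. Where nothing states separate cultures, p-values measure only the spread between these libraries, which may be technical.

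Counts were scaled by TMM and tested with edgeR 4.0.16 (R 4.3.3) by the quasi-likelihood test, with filterByExpr, one mean per group over all groups, 4 residual degrees of freedom and Benjamini-Hochberg adjustment, two-sided. DESeq2 1.42.0 was an alternative, with adjusted p given as NA left as NA. The code was tested on simulated data. Replicates differed beyond sampling noise. Comparisons that use the same group share its libraries. Same-numbered replicates deviated together in all 6 pairs of groups (r = 0.234 to 0.718 over 10405 genes), so the numbers, taken from the titles, were taken to pair the samples. The tests above have no replicate term, and the fit with the replicate number as a block was an alternative, given beside a result where it changed a call or a count.

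The 10 genes, the list of 59 pathway genes and the tests were chosen with earlier results of these data known. All 10 genes, BRCA1, up to 6 called pathway genes of largest change per comparison (mean log2 CPM of at least 1) and the 5 genes most like NOTCH3 (mean log2 CPM of at least 3) were to be named. Other normalizations, filters, tests and samples were tried in 15 alternatives.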

Additional observations from a re-analysis of the deposited data

How the results depend on the processing

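Each result was recomputed under 15 alternatives, 8 of which leave out 1 library. A group then left with 1 library was assumed to vary like the others. The interaction could not be fitted on only the groups compared, and DLL1 has no value in some settings. NOTCH2, NOTCH3 and HEY1 in DMSO, JAG2 in DMSO, and NOTCH2, NOTCH3 and JAG1 in entinostat kept their line call in all alternatives. With the replicate block, NOTCH1 (-0.21) and JAG1 (0.20) were called between the lines in DMSO, and it changed no other line or interaction call of the 10 genes.

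With the replicate block 5 of the 10 genes passed the threshold for entinostat in BRCA1+ cells (24.4% of all genes) and 18 pathway genes were called for entinostat in BRCA1-null cells (20.5%). In BRCA1-null cells 1 of the 10 genes passed, not 2, with DESeq2 size factors (10.7% of all genes), with no filter (7.38%), with only the groups compared (4.1%) and without any 1 library (1 to 1), and 7 pathway genes were called with only the groups compared. Leaving out 1 library gave 3 to 6 of the 10 genes between the lines in entinostat, 1 to 3 for entinostat in BRCA1+ cells, 5 to 16 pathway genes for entinostat in BRCA1+ cells and 1 to 11 in BRCA1-null cells. Over the same settings 25.6% to 39.1% of all genes were called between the lines in entinostat, 3.82% to 13.6% for entinostat in BRCA1+ cells and 2.89% to 9.02% in BRCA1-null cells. The cause was not tested.

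Values that changed sign had no call in any setting. The interaction of NOTCH1 was -0.0078 with upper-quartile factors and -0.0015 with a stricter filter, and that of DLL1 was 0.060 with DESeq2's Wald test and 0.018 with the replicate block. Leaving out 1 library gave line differences in DMSO of -3.69 to 1.04 for DLL1, -0.13 to 0.41 for LFNG and -0.18 to 0.37 for NRARP, and in entinostat of -0.19 to 0.75 for DLL1. Interactions ran from -0.18 to 0.22 for NOTCH1, -0.17 to 0.11 for JAG2, -0.89 to 3.85 for DLL1, -0.41 to 0.22 for HES1 and -0.094 to 0.46 for NRARP. Entinostat against control ran from -0.28 to 0.27 for NRARP in BRCA1+ cells. In BRCA1-null cells it ran from -0.16 to 0.47 for HES1 and from -0.028 to 0.17 for HEY1. At 0 to 12 counts per library, depth limits DLL1, and its values here are fitted against libraries at or near 0 and are no measure of a fold.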

Other observations

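A pair of lowly expressed pathway genes, chosen after their values were seen, is given by counts alone. HEYL, a relative of HEY1, had 24 and 39 counts without and 43 and 70 counts with entinostat in BRCA1+ libraries, against 1 and 4 without and 17 and 4 with the drug in BRCA1-null libraries. DTX3, a Deltex ubiquitin ligase, had 0 and 3 counts without and 3 and 16 counts with entinostat in BRCA1+ libraries, against 117 and 138 without and 282 and 136 with the drug in BRCA1-null libraries. Each passed the filter on low counts through the line in which it was high, so neither a fold nor a test is given. Both are among the pathway genes counted as called between the lines in DMSO and in entinostat.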
